A study of Mus musculus with 12 samples.

Results

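Across guided cardiac differentiation of mouse embryonic stem cells, 55 genes were read lower in the intermediate cardiopoietic stage than in the starting stem cells and the later cardiomyocytes. The group was picked on those values: each gene was read by its brightest probe set naming that gene alone, stage means were taken of log2(signal + 16), and a gene was kept when the cardiopoietic mean lay at least 0.6 below the starting cells, the cardiomyocyte mean at least 0.6 above the cardiopoietic mean, and the starting signal averaged 200 or more. Of 18193 genes with such a probe set, 9436 reached the signal floor, and the 55 members are 0.583% of those. The fall and the rise therefore describe how the genes were chosen and carry no test here.

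The cells were CGR8, a feeder-independent mouse embryonic stem cell line, hybridised to 12 Affymetrix Mouse 430 2.0 arrays, 3 per stage. That these came from independent samplings of the cultures is stated in the methods of the study. ES-LIF(+) cells grew in 7.5% serum with leukemia inhibitory factor (LIF), the cytokine that holds mouse embryonic stem cells in self-renewal, and ES-LIF(-) cells had been without LIF for 48 h. Cardiopoietic cells (CP) had received a cocktail of cardiogenic growth factors, and 5 days of culture followed, with TNF-α at 30 ng/ml and serum lowered to 3%. Cardiomyocytes (CM) had received the same cocktail, and 9 days of culture in 20% serum followed. CP and CM, but not the stem cells, were enriched on a Percoll density gradient, so that purification, serum, TNF-α and time in culture all differed with stage and cannot be told apart. The signal is relative, since each array was scaled to one trimmed mean of 500. In bulk RNA, fewer cells of a type and less RNA per cell cannot be told apart.

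The CP stage lies between pluripotency and the contracting cell: cardiac transcription factors have entered the nucleus, but the sarcomere is not yet built. Pluripotency genes go down and contractile genes go up as cells pass through it. A gene that goes down into CP and up after it follows neither course at every step, whether it ends above or below its start. The members are taken in turn by what their products do: interferon-inducible GTPases and a cytokine, adhesion and junction proteins, growth factors, cytoskeletal and neuronal proteins, muscle and mitochondrial proteins, and a mixed remainder.

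The fall from ES-LIF(+) to CP had a median of 0.91 on the log2 scale over the members, and the rise from CP to CM a median of 0.85. In 49 of 55 members all 3 CP arrays were below every ES-LIF(+) and every CM array, against 4.18% of the 9436 genes at the signal floor, a count that the rule largely fixes. The 6 members whose arrays overlapped were Trp53rka, Shank3, Sec14l3, Pdzd2, Fgfr3 and Klk8. By depth, the smaller of the fall and the rise, 13 members reached 1 and only Gbp2b, Gbp2 and Slc47a1 reached 2. CP was the lowest of the 4 stages in 52 members, and ES-LIF(-) was the lowest in the other 3, Parvb, Pdgfc and Pdzd2.

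Most members came back to near their ES-LIF(+) level and some did not. CM lay within 0.6 of ES-LIF(+) in 42 members, which 50.2% of the genes at the signal floor also did, and the median difference of CM from ES-LIF(+) was -0.03. The cardiomyocytes stayed at least 0.6 below the stem cells in 7 members: Sfn at -1.65, Gbp2 at -1.22, Ltb at -0.99, Sec14l3 at -0.95, Gbp2b at -0.90, Cldn4 at -0.74 and Klk8 at -0.61. They ended at least 0.6 above the stem cells in 6 others, namely Synpo2l at 3.63, Slc47a1 at 2.20, Unc45b at 1.69, Fgf13 at 0.95, Ppargc1b at 0.93 and Rab3ip at 0.60. Array by array, CM was above every ES-LIF(+) array in 9 members (29.8% of the genes at the signal floor) and below every one in 15 (44.7% of the floor genes), and overlapped them in 31. The rule bears on both stages, so nothing is read from these shares.

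**Figure D1:**
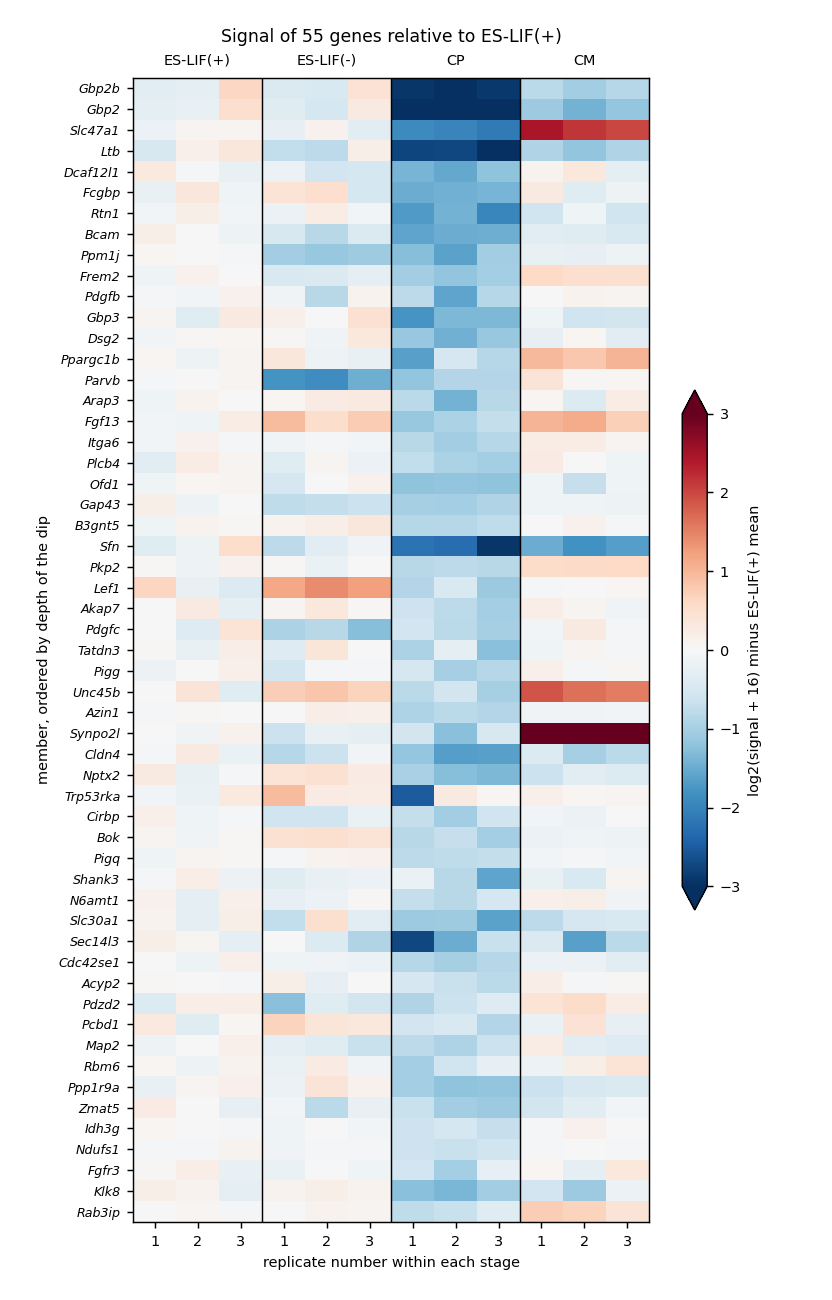
Each row is one of the 55 genes, ordered by depth from top to bottom, and each column one array, grouped by stage with its replicate number. Colour is log2(signal + 16) minus the gene's ES-LIF(+) mean, blue for lower and red for higher, with colours saturated beyond 3 in either direction, and the CP columns form the blue band with Synpo2l and Slc47a1 turning red in CM.

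**Figure D2:**
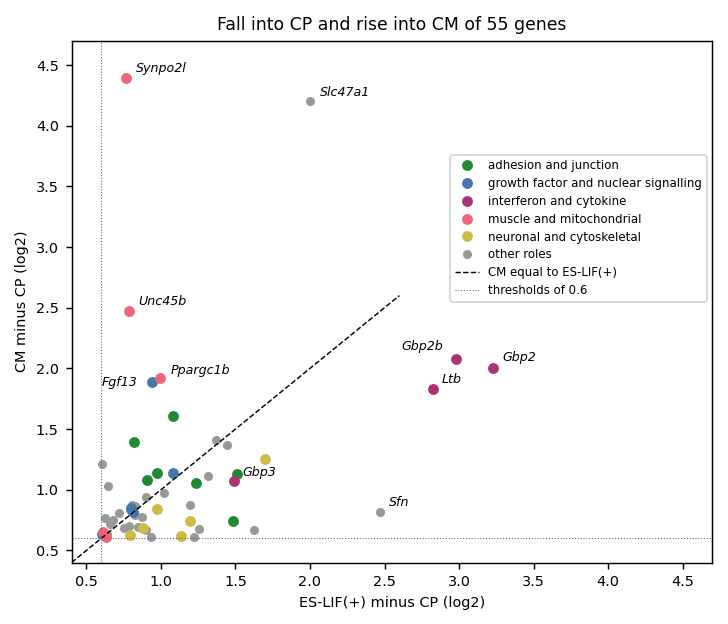
Each point is one gene, with the fall from ES-LIF(+) to CP on the horizontal axis and the rise from CP to CM on the vertical axis, both in log2 units, and colours for roles. Points on the dashed line returned exactly to their ES-LIF(+) level, points above it overshot, led by Synpo2l and Slc47a1, and points below it, led by Sfn, fell short.

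The deepest members, Gbp2b and Gbp2, are guanylate-binding proteins, large GTPases that interferons induce and that coat pathogen-containing vacuoles, and Gbp3, lower in the order by depth, is another. Gbp2b was read at 1521, 1599 and 2993 on the 3 ES-LIF(+) arrays, at 243, 208 and 246 on the CP arrays and at 1106, 931 and 1060 on the CM arrays. Gbp2 gave 1623, 1693 and 2838 in ES-LIF(+), 234, 195 and 168 in CP, and 925, 732 and 877 in CM. Gbp3 was dimmer, at 339, 246 and 389 in ES-LIF(+), 82.4, 116 and 115 in CP, and 291, 207 and 214 in CM. For Gbp2b and Gbp2 the CP arrays were far below both other stages and no CM array reached the lowest ES-LIF(+) array, while for Gbp3 the CM and ES-LIF(+) arrays overlapped. The falls were 2.98, 3.23 and 1.49 and the rises 2.08, 2.01 and 1.07 for Gbp2b, Gbp2 and Gbp3.

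In both stem cell stages, replicate 3 was the highest array for all 3 of these genes. In ES-LIF(-) it read 2612 for Gbp2b, where replicates 1 and 2 read 1430 and 1405, and the SD of the ES-LIF(+) signal was 828 around a mean of 2038 (n = 3). A second probe set for Gbp2 fell by 3.17 and rose by 1.69. Its design allows reads of related transcripts, and cross-hybridisation between members of this family was not tested.

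Gbp3, Gbp2b and Gbp2 stand next to one another on mouse chromosome 3, with 0 annotated protein-coding genes between neighbours in RefSeq, and no other pair of members did. Their promoters are shown because they share a motif. The 250 bases before the first RefSeq start of each gene (build GRCm38.p6, plus strand) are Gbp3 at chr3:142559794-142560043, Gbp2b at chr3:142594597-142594846 and Gbp2 at chr3:142620413-142620662, with every match to the core of the interferon-stimulated response element (GAAA, any 2 bases, GAAA) in capitals. All matches lie on the minus strand, so the capitals read TTTC at either end of each match, and in Gbp3 a pair of matches overlap.
Gbp3: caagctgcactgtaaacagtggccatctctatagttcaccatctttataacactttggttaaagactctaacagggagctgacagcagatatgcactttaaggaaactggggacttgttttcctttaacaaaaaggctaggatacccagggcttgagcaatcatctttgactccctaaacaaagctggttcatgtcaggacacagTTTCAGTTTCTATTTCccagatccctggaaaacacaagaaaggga
Gbp2b: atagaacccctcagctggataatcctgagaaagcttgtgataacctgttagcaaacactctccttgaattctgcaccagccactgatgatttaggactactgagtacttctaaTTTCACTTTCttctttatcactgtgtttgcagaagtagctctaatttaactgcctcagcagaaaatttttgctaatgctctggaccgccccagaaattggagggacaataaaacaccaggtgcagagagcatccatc
Gbp2: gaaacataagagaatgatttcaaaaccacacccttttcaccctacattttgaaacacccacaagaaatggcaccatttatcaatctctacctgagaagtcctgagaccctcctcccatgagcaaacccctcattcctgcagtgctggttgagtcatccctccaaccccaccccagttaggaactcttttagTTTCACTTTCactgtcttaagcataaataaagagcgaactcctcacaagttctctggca
The motif, searched on both strands, occurred in the promoters of 3 of the 43 members with a sequence in the promoter table (7.0%), these 3 genes, and in 180 of 7702 promoters (2.3%) of genes at the signal floor. The match nearest the start lay at -39 to -30 in Gbp3, at -137 to -128 in Gbp2b and at -59 to -50 in Gbp2. The motif was added after the values of these genes had been seen, a match is a run of letters and no proof of binding, and 3 neighbouring paralogs are not independent of each other.

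The other interferon-response genes gave another picture. Of 26 tested genes of the interferon and antigen presentation list that are not members, 11 were higher and 0 lower in CP than in ES-LIF(+) by limma (adjusted p under 0.05 and over 1.5-fold), 5 being lower at an unadjusted p under 0.05, where 18.7% of all 13145 tested genes were higher and 13.3% lower. With every array centred on its median, which takes the 0.28 excess of the CP medians away, 7 of the 26 were higher and 5 lower, and over all tested genes the split moved from 2460 higher and 1752 lower to 1585 and 3600. From CP to CM, 9 of the 26 were higher and 1 lower, against 9.04% higher and 10.4% lower over all tested genes. Ifit3, an interferon-induced RNA-binding protein, stood 2.72 higher in CP than in ES-LIF(+) (limma adjusted p = 1.75e-05), and B2m, the light chain of MHC class I, 1.43 higher (limma adjusted p = 1.19e-08). Both were thus measured in the opposite direction to Gbp2. Gbp7, the only other guanylate-binding protein bright enough to test, differed by -0.31 in CP (limma adjusted p = 0.198) and was 0.91 higher in CM than in CP (limma adjusted p = 0.00196). With median centring or quantile normalization Gbp7 was called lower in CP, at -0.60 and -0.61 (limma adjusted p = 0.016 and 0.0132).

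**Figure D3:**
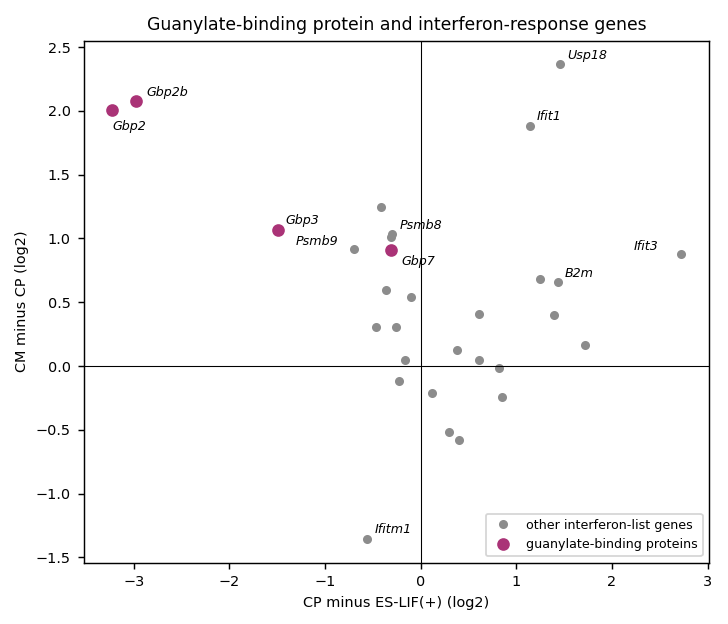
Each point is one of 30 tested genes of the interferon list or the guanylate-binding protein family, with the log2 difference of CP from ES-LIF(+) on the horizontal axis and that of CM from CP on the vertical axis. Gbp2b, Gbp2 and Gbp3, in purple, lie at the upper left, lower in CP and higher again in CM, while Ifit1, Ifit3, Usp18 and B2m lie at the upper right, positive on both axes.

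Ltb encodes lymphotoxin β, the membrane-bound TNF family ligand that holds lymphotoxin α at the cell surface. Its signal was 312, 493 and 564 in ES-LIF(+), 52.4, 53.6 and 41.2 in CP, and 230, 187 and 230 in CM. The CP arrays were below the median probe set of their arrays, so the fall of 2.82 depends on the added constant of 16, and no CM array reached the lowest ES-LIF(+) array. Lymphotoxin α and TNF themselves, Lta and Tnf, were too dim to test, with mean signals of at most 32.8 in any stage. Ltbr, the receptor of lymphotoxin β, was measured the other way, 2.57 higher in CP than in ES-LIF(+) (limma adjusted p = 2.86e-08).

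The Ltb promoter is given for its match to GGGACTT, a partial NF-κB site, which stands in capitals on the minus strand at -84 to -78 (RefSeq, GRCm38.p6, plus strand, chr17:35194257-35194506).
Ltb: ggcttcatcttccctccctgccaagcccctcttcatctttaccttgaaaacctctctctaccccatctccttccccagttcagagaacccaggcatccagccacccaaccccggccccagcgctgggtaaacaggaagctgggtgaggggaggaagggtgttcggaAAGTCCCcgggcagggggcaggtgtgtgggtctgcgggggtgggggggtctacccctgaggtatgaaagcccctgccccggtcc
That motif was present in 3 of 43 member promoters (7.0%) and in 5.8% of those of the floor genes, so that its share among the members was close to the share elsewhere. The members' promoters were also like the others in base composition, with a median GC content of 60.0% against 60.4%.

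**Figure D4:**
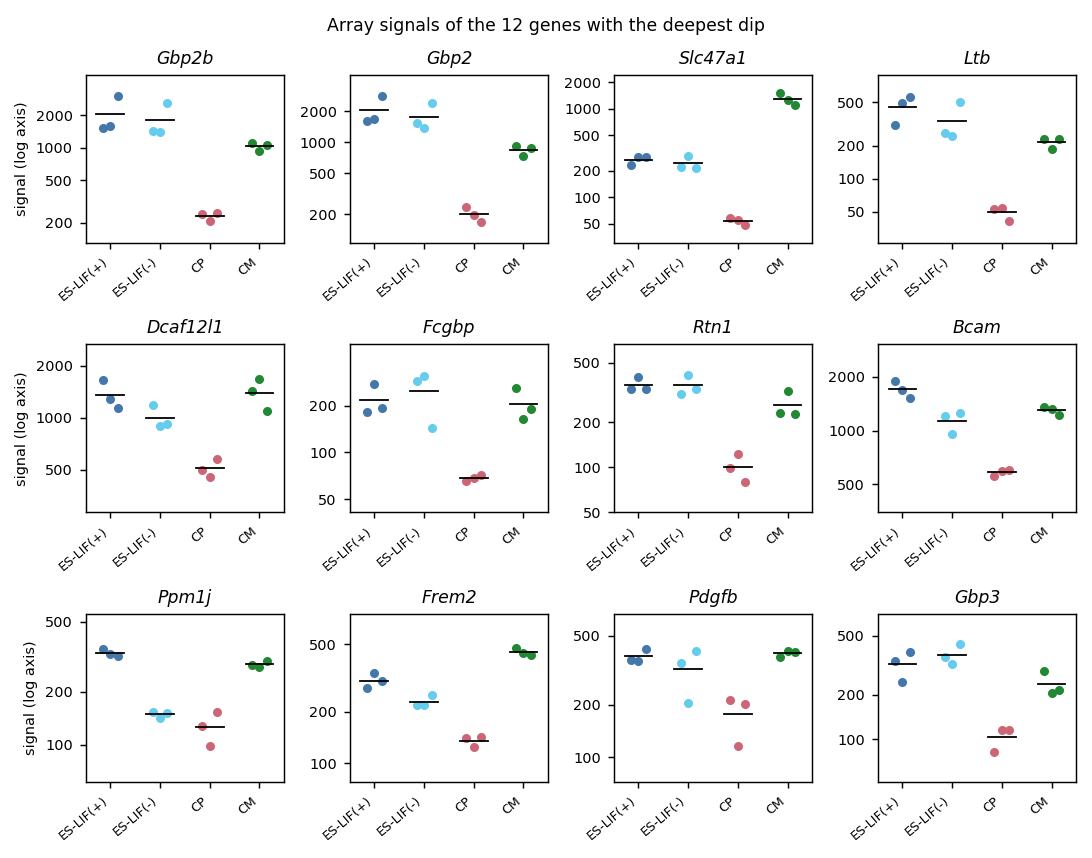
Each panel is one of the 12 genes with the deepest fall and rise, with array signal on a log axis, one dot per array and a bar at the stage mean (n = 3). In all 12 the CP dots lie below every ES-LIF(+) and CM dot, while the place of ES-LIF(-) differs, level with CP in Ppm1j and level with ES-LIF(+) in Rtn1.

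A block of 7 members holds cells to the basement membrane or to each other. Bcam, the Lutheran receptor for laminin α5, read 1904, 1683 and 1519 in ES-LIF(+), 558, 593 and 602 in CP, and 1363, 1316 and 1222 in CM. Itga6, the α6 integrin subunit of laminin receptors, was the brightest of the block, at 3533, 4106 and 3641, then 2116, 1807 and 2071, then 4365, 4356 and 3991. Frem2, an extracellular matrix protein of the Fraser complex, gave 275, 336 and 305, then 140, 124 and 143, then 471, 441 and 429. For Bcam no CM array regained the lowest ES-LIF(+) array, for Itga6 one CM array fell within the ES-LIF(+) range, and for Frem2 every CM array was above every ES-LIF(+) array.

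Parvb, β-parvin, which links integrin-linked kinase to actin, averaged 852 ± 45.5 in ES-LIF(+), 427 ± 50.5 in CP and 960 ± 134 in CM (SD, n = 3 each). The other laminin receptors and linkers, a list added after these values were seen, did not share this fall: of 8 tested genes 5 were higher and 0 lower in CP by limma, with 1 lower at an unadjusted p under 0.05. The shares over all tested genes were 18.7% higher and 13.3% lower. Parva, the paralog of Parvb, was 2.76 higher in CP (limma adjusted p = 3.28e-08) and Itgb1, the partner of Itga6, 1.41 higher (limma adjusted p = 2.06e-09). Dag1, dystroglycan, was the one that centring moved, from -0.40 to -0.68, where it was called lower (limma adjusted p = 0.000136).

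Dsg2 and Pkp2 are desmosome proteins, a cadherin and the plakophilin that anchors it, and both are expressed in heart muscle. Dsg2 read 978, 1056 and 1078 in ES-LIF(+), 466, 372 and 462 in CP, and 867, 1073 and 818 in CM. Pkp2 read 2062, 1829 and 2201, then 1139, 1165 and 1121, then 2992, 3016 and 3061. The CM arrays of Dsg2 overlapped the ES-LIF(+) arrays, while those of Pkp2 were all above it. Further probe sets of these genes at a signal of 200 or more repeated the course: a second Pkp2 probe set fell by 1.25 and rose by 1.68, and one for Dsg2 fell by 1.48 and rose by 0.98, although another Dsg2 probe set fell by only 0.47.

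Their desmosome partners differed from one another. Dsp, desmoplakin, was 0.51 lower in CP, inside the 1.5-fold limit (limma adjusted p = 0.0129), and 2.15 higher in CM than in CP (limma adjusted p = 1.05e-07), and median centring put its fall at 0.79 and past the limit. Pkp4, a plakophilin relative of adherens junctions, fell by 0.89 (limma adjusted p = 4.09e-07) and did not return, at 0.20 between CP and CM (limma adjusted p = 0.0663). Jup, plakoglobin, differed by 0.02 in CP (limma adjusted p = 0.885). Dsc2 differed by -0.28 in CP (limma adjusted p = 0.566) and was 1.36 higher in CM than in CP (limma adjusted p = 0.0122). Pkp3 differed by 0.13 in CP (limma adjusted p = 0.669) and was 0.75 lower in CM than in CP (limma adjusted p = 0.0173).

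Cldn4, a tight junction claudin of epithelia, averaged 662 ± 112 in ES-LIF(+), 228 ± 50.3 in CP and 393 ± 87.6 in CM (SD, n = 3 each), a partial return. Among 39 other tested genes of the epithelial junction list, 2 were higher and 8 lower in CP by limma, with 0 and 18 after median centring, and from CP to CM 5 rose and 5 fell. Over all 13145 tested genes 18.7% were higher and 13.3% lower in CP, or 1585 and 3600 genes after centring. From CP to CM the shares were 9.04% higher and 10.4% lower. Cdh1 and Epcam, E-cadherin and its epithelial companion, fell by 1.12 and 1.10 into CP (limma adjusted p = 1.02e-08 and 2.35e-07) and were lower still in CM, with Epcam called and Cdh1 inside the fold limit. Other genes of the list rose from CP to CM, among them Krt8 and Krt18, keratins of simple epithelia, by 0.99 and 1.09 (limma adjusted p = 0.00399 and 0.000222).

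Of 5 members in growth factor signalling and its nuclear targets, 2 are PDGF ligands. Pdgfb read 364, 357 and 418 in ES-LIF(+), 212, 115 and 202 in CP, and 377, 406 and 404 in CM. Pdgfc read 818, 617 and 1083, then 547, 456 and 399, then 777, 993 and 786. In both, the CM arrays overlapped those of ES-LIF(+), at differences of 0.06 and 0.05. The receptors took the other course, since Pdgfra was 2.42 and Pdgfrb 3.56 higher in CP than in ES-LIF(+) (limma adjusted p = 1.37e-06 and 2.58e-08). A second Pdgfc probe set fell by only 0.15, and a second Pdgfb probe set by 0.20, so that the fall of these ligands rests on 1 probe set each. Pdgfa, the other ligand tested, differed by -0.38 in CP (limma adjusted p = 0.0722). With median centring it was called lower, at -0.67 (limma adjusted p = 0.00604).

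Fgf13, an intracellular FGF homologous factor that binds sodium channels, read 656, 630 and 811 in ES-LIF(+), 306, 349 and 415 in CP, and 1415, 1512 and 1159 in CM. Fgfr3, an FGF receptor, was near the signal floor at 207 ± 32.2, 133 ± 38.2 and 213 ± 46.3 (SD, n = 3 each) with overlapping arrays. Lef1, a transcription factor through which β-catenin acts, read 504, 272 and 235, then 167, 230 and 139, then 309, 319 and 331. Its fall of 0.81 rested on ES-LIF(+) replicate 1, without which it was 0.49 and Lef1 left the group, and its second probe set was 0.21 higher in CP. Of the other FGF-list genes tested, 12 of 38 were higher and 7 lower in CP by limma, a balance that median centring turned to 10 higher and 11 lower. Of the other WNT-list genes 18 of 46 were higher and 3 lower, or 13 and 7 with median centring. Over all 13145 tested genes 18.7% were higher and 13.3% lower in CP, or 1585 and 3600 genes with median centring.

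A set of 5 members is known for muscle or for mitochondria, and 3 of them ended above their starting level. Synpo2l, a Z-disc protein of heart and skeletal muscle, read 290, 271 and 322 in ES-LIF(+), 194, 113 and 206 in CP, and 3864, 4342 and 3306 in CM. Unc45b, the chaperone that folds muscle myosin, read 379, 511 and 295, then 214, 259 and 184, then 1471, 1238 and 1150. Ppargc1b, a coactivator of mitochondrial biogenesis, read 270, 231 and 273, then 72.6, 178 and 134, then 517, 463 and 536. In these 3 genes the fall was the small limb, 0.77, 0.79 and 0.99, and the rise was the large one, at 4.40, 2.48 and 1.92, with every CM array above every stem cell array. The fall of Synpo2l was 0.52 without CP replicate 2, and that of Unc45b 0.59 without ES-LIF(+) replicate 2. Each gene then left the group.

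Synpo2l is the one member on the cardiac and striated muscle list. Of 62 other tested genes of that list 27 were higher and 3 lower in CP by limma (20 and 5 with median centring), and 52 were higher and 0 lower in CM than in CP (0 lower also at an unadjusted p under 0.05). Over all 13145 tested genes 18.7% were higher and 13.3% lower in CP, or 1585 and 3600 genes with centring. From CP to CM, 9.04% were higher and 10.4% lower. The summed signal of 11 cardiomyocyte markers was 1306 to 1547 in ES-LIF(+), 2925 to 3373 in CP and 146624 to 167077 in CM.

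Idh3g, a subunit of isocitrate dehydrogenase in the citric acid cycle, fell by 0.61 and rose by 0.65, and Ndufs1, the largest subunit of respiratory complex I, fell by 0.63 and rose by 0.61. Both were bright, with CP means of 3300 ± 178 and 2051 ± 58.1 (SD, n = 3 each) against 5045 ± 194 and 3193 ± 213 in ES-LIF(+), and their arrays did not overlap between these stages. Ndufs1 was close to the thresholds and left the group under median centring. Of 53 other oxidative phosphorylation genes 0 were called in either direction in CP by limma, with 2 higher and 30 lower at an unadjusted p under 0.05 and 13 called lower after median centring, and 24 were higher and 1 lower in CM than in CP. Of 26 other citric acid cycle genes 1 was higher and 2 lower in CP, 10 lower with centring, and 9 were higher and 2 lower in CM. Over all 13145 tested genes 18.7% were higher and 13.3% lower in CP, and 3600 were lower after median centring. From CP to CM, 9.04% were higher and 10.4% lower. The counts lower after centring are not read as a fall of these lists.

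A set of 6 members is known mainly from neurons or the actin and microtubule skeleton. Rtn1, a reticulon of the endoplasmic reticulum, read 333, 405 and 336 in ES-LIF(+), 98.5, 123 and 79.6 in CP, and 231, 326 and 228 in CM. Gap43, the growth cone protein, averaged 803 ± 93.7, 400 ± 19.4 and 728 ± 8.3 (SD, n = 3 each), and no CM array of it lay outside the ES-LIF(+) range. Nptx2, a secreted neuronal pentraxin, averaged 355, 145 and 253, and Ppp1r9a, the actin-binding scaffold neurabin, 575, 252 and 394. In Rtn1, Nptx2 and Ppp1r9a every CM array was below the ES-LIF(+) mean.

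Map2, a dendritic microtubule protein, and Shank3, a postsynaptic scaffold, were dim, with CP means of 142 ± 14.9 and 151 ± 76.5 (SD, n = 3), and the Shank3 CP arrays were spread over 232, 143 and 79.3. Without CP replicate 3 the fall of Shank3 dropped from 0.88 to 0.52 and its rise from 0.68 to 0.33. The sum over 8 neural markers, Map2 among them, was 10317 to 11795 in ES-LIF(+), 5676 to 5751 in CP and 4648 to 4792 in CM. It thus fell with these members and did not return with them.

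Slc47a1, a proton-coupled exporter of organic cations, was the transporter with the deepest course. It read 233, 283 and 283 in ES-LIF(+), 58.6, 55.6 and 48.8 in CP, and 1520, 1238 and 1105 in CM. Its CP arrays were below the array median, so the size of the rise of 4.20 depends on the added constant, while every CM array was above every stem cell array. Slc30a1, the zinc exporter of the plasma membrane, averaged 722 in ES-LIF(+), 295 in CP and 474 in CM, with no overlap between CP and the other stages, although its second probe set rose by only 0.05. Sec14l3, a lipid-binding protein, was spread over 30.4, 92.7 and 178 in CP and over 211, 83.6 and 159 in CM, and its CM arrays overlapped its CP arrays. Its rise of 0.67 was 0.12 without CP replicate 1, 1.16 without CP replicate 3 and 0.41 without CM replicate 1, and its fall of 1.63 was 1.08 without CP replicate 1.

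Sfn, the 14-3-3σ protein that p53 induces, had one of the largest falls and ended furthest below ES-LIF(+) in CM, at -1.65. It read 801, 931 and 1515 in ES-LIF(+), 214, 201 and 125 in CP, and 361, 286 and 321 in CM. All CM arrays were above the CP arrays and below the ES-LIF(+) arrays. Other members in intracellular signalling came back close to ES-LIF(+): Ppm1j, a protein phosphatase, at -0.20, Arap3, a GTPase-activating protein, at -0.05, Plcb4, a phospholipase C, at 0.04, Akap7, an anchor of protein kinase A, at 0.06, Bok, a proapoptotic BCL2 relative, at -0.15, and Cdc42se1, a small CDC42 effector, at -0.23. In Ppm1j, Bok and Cdc42se1 every CM array was still below every ES-LIF(+) array, while in Arap3, Plcb4 and Akap7 the arrays overlapped. Rab3ip, an exchange factor for Rab8, overshot and read 730, 781 and 965 in CP against 2117, 2009 and 1656 in CM.

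Among RNA-binding members, Cirbp, the cold-inducible protein, averaged 846 ± 86.3, 485 ± 73.5 and 792 ± 47.2 in ES-LIF(+), CP and CM (SD, n = 3 each). Rbm6 and Zmat5, the latter a component of the minor spliceosome, fell by 0.63 and 0.93 and rose by 0.77 and 0.61. A second Rbm6 probe set was 0.16 higher in CP than in ES-LIF(+). Cirbp was 1 of 59 genes of the splicing and RNA binding list at the signal floor to enter the group.

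The remaining 14 members have mixed roles. Dcaf12l1, which belongs to a family of CUL4 ligase adaptors, was the deepest of them, at 1650, 1276 and 1135 in ES-LIF(+), 499, 454 and 575 in CP, and 1434, 1663 and 1087 in CM, and its second probe set fell by 1.69 and rose by 1.74. Fcgbp, a mucin-like secreted protein, read 183, 275 and 194, then 65.6, 68.1 and 71.6, then 262, 164 and 191. In both the CM arrays overlapped those of ES-LIF(+).

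Pigg and Pigq both act in the synthesis of the glycosylphosphatidylinositol anchor and fell by 0.79 and 0.75. Of 16 other tested genes of that pathway, listed after these values were seen, 2 were higher and 2 lower in CP by limma (4 lower with centring), and 0 were called in either direction between CP and CM, where 3 were higher and 1 lower at an unadjusted p under 0.05. Over all 13145 tested genes 18.7% were higher and 13.3% lower in CP, with 3600 lower after centring. The lower counts of the pathway in CP are near those shares. Of 4 other Pigq probe sets at a signal of 200 or more none passed both thresholds: one fell by 0.54 and rose by 0.41, one fell by 0.22 and rose by 0.56, one was 0.32 higher in CP than in ES-LIF(+), and one fell by 0.70 and was 0.01 lower in CM than in CP.

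Ofd1, a centriole and cilium protein, fell by 1.19 and rose by 0.87, B3gnt5, a glycolipid synthase, by 0.83 and 0.86, and Azin1, which protects ornithine decarboxylase, by 0.87 and 0.77. A second Azin1 probe set fell by 0.18 and another was 0.50 higher in CP. The falls of Tatdn3, a predicted nuclease, N6amt1, a methyltransferase, Acyp2, an acylphosphatase, Pcbd1, a pterin dehydratase, and Pdzd2, a PDZ-domain protein, lay between 0.64 and 0.83. Klk8, a secreted serine protease, read 221, 200 and 258 in CP and 362, 248 and 482 in CM, so that 1 CM array lay within the CP range, and its rise of 0.61 was 0.39 without CM replicate 3. The rise of Pcbd1, 0.64, was 0.42 without CM replicate 2. Trp53rka, a p53-regulating kinase, owed its membership to 1 array: CP replicate 1 read 25.7, while replicates 2 and 3 read 269 and 228, inside the ES-LIF(+) range of 188 to 271. Without that array the difference of ES-LIF(+) from CP was -0.17 and that of CM from CP -0.07, while without CP replicate 2 they were 1.21 and 1.31, and without CP replicate 3 the fall was 1.10.

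Members with more than one probe set offered values the rule had not used, although on the same arrays. Of 20 further probe sets with an ES-LIF(+) signal of 200 or more, from 14 genes, 16 were lower in CP than in both other stages and 7 passed both thresholds of 0.6. Those 7 belonged to 6 genes, Dcaf12l1, Dsg2, Gbp2, Itga6, Pkp2 and Ppp1r9a. At a signal of 100 or more there were 32 further probe sets from 22 genes. Of these, 24 were lower in CP than in both other stages, and the same 7 passed both thresholds. The dimmer probe sets of Nptx2, Fgf13 and Parvb fell by only 0.05, 0.12 and 0.45. No such share was taken over genes outside the group. Among those that did not pass, a second probe set fell by 0.30 and rose by 0.45 for Cdc42se1, fell by 0.21 and rose by 0.69 for Rab3ip, and fell by 0.61 and rose by 0.58 for Idh3g.

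The neighbourhood of each threshold was continuous. Just inside the fall threshold were Rab3ip at 0.605 and Fgfr3 at 0.608, and just outside it Cox6b2 at 0.590. Just inside the rise threshold were Klk8 at 0.607 and Ndufs1 at 0.608, and just outside it Coch at 0.596 and Acyp1 at 0.588. Pigg at 206.4 and Fgfr3 at 206.7 were the dimmest members in ES-LIF(+), and Kdf1 at 198.3 and Mt3 at 197.9 met both differences and missed the signal floor.

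Cell types other than the named ones moved with the stages too. The summed signal of 10 fibroblast and mesenchyme markers was 19466 to 22315 in ES-LIF(+), 147160 to 161998 in CP and 99069 to 110856 in CM, so that it was highest where the members were lowest. All 10 were measured, 4 of them (Dcn, Lum, Postn and Pdgfra) were below the array median on every ES-LIF(+) array, and 0 were in CP. The sum of 10 stem cell markers was 92267 to 95894, 69285 to 75920 and 19982 to 27468 in the same stages. The part of these cell types in the members' values was not tested.

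The comparison of ES-LIF(-) with ES-LIF(+) asks what the same genes did when LIF was withdrawn without the cardiogenic cocktail. No threshold of the rule used it, although it shares the ES-LIF(+) arrays with the rule. The brightest probe set was also chosen over all 12 arrays. Because the rule kept genes with high ES-LIF(+) values, it pulls the members' differences downward. The p-values of members lower without LIF are not free of that choice. By limma, 7 of 55 members were called, 3 higher and 4 lower, where 8.32% of the 9436 tested genes at the signal floor were called (3.67% higher and 4.65% lower) and 7.68% of all 13145 tested genes. At the floor genes' rate fewer than 5 members would be called, so the count is close to the background and is not read as a property of the group. The median difference of the members was -0.10, against 0.01 for the genes at the signal floor, and nothing is read from this gap, since the rule pulls it downward. The ES-LIF(-) arrays lay above every CP array in 42 members (40.4% of the genes at the signal floor), overlapped CP in 12 and lay below every CP array in 1 (27.3% of the floor genes), counts that the choice of low CP values largely sets.

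That 1 was Parvb. Its ES-LIF(-) arrays read 233, 222 and 297, against 812, 842 and 901 in ES-LIF(+) and 369, 457 and 455 in CP. The difference from ES-LIF(+) was -1.71 ± 0.14 (SE, limma adjusted p = 1.95e-06), so β-parvin was lowest after LIF withdrawal, intermediate in CP and back in CM.

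Ppm1j, Pdgfc and Gap43 were the other members lower without LIF. Ppm1j read 349, 330 and 320 with LIF and 153, 143 and 151 without it, a difference of -1.08 ± 0.18 (SE, limma adjusted p = 0.00104). Pdgfc read 818, 617 and 1083 with LIF and 414, 451 and 329 without, a difference of -1.02 ± 0.19 (SE, limma adjusted p = 0.00233). Gap43 read 901, 715 and 794 with LIF and 466, 481 and 507 without, a difference of -0.70 ± 0.11 (SE, limma adjusted p = 0.000596). In all 3 the arrays with and without LIF did not overlap, and in Ppm1j and Pdgfc the ES-LIF(-) arrays reached into the CP range.

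Lef1, Fgf13 and Unc45b went up without LIF and so changed direction between ES-LIF(-) and CP. Lef1 read 732, 878 and 765 in ES-LIF(-) and differed by 1.27 ± 0.23 (SE, limma adjusted p = 0.00235). Fgf13 read 1353, 1016 and 1187 and differed by 0.75 ± 0.15 (SE, limma adjusted p = 0.00358). Unc45b read 653, 697 and 619 and differed by 0.74 ± 0.18 (SE, limma adjusted p = 0.0126), which fell to 0.56, inside the fold limit, without ES-LIF(+) replicate 3. In each of the 3 genes every ES-LIF(-) array was above every ES-LIF(+) and every CP array.

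Bcam, Cirbp and Bok passed the adjusted p threshold inside the fold limit, at -0.58, -0.46 and 0.46 (limma adjusted p = 0.00353, 0.0432 and 0.00954). For the guanylate-binding proteins no difference was detected, at -0.16 for Gbp2b (95% interval -0.67 to 0.36), -0.21 for Gbp2 (95% interval -0.68 to 0.26) and 0.21 for Gbp3 (95% interval -0.25 to 0.67). For Slc47a1 the interval was -0.52 to 0.24, and for Ltb it was wide, at -1.03 to 0.13. Itga6, Pkp2, Idh3g and Ndufs1 had narrow intervals around no change, with the lowest bound at -0.25 for Itga6.

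**Figure D5:**
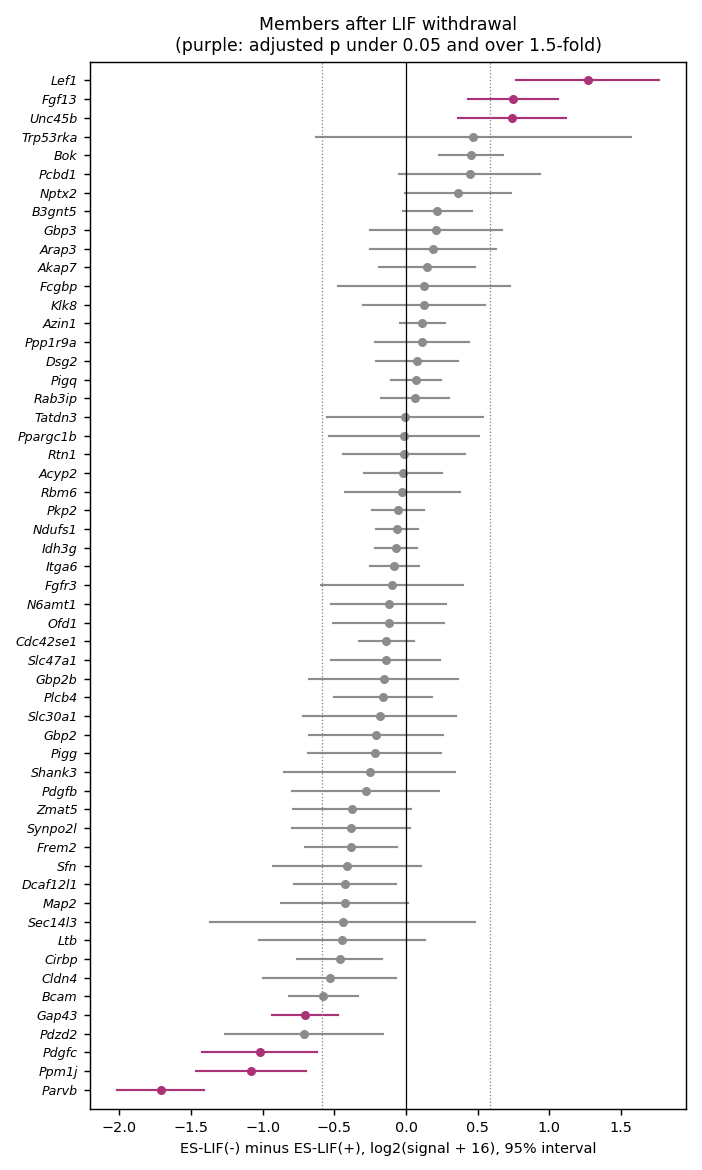
Each row is one of the 55 genes, with the log2 difference of ES-LIF(-) from ES-LIF(+) as a point, its 95% limma interval as a line, and dotted lines at 1.5-fold. Purple marks the 7 called genes, Lef1, Fgf13 and Unc45b to the right and Gap43, Pdgfc, Ppm1j and Parvb to the left, and the other 48 are grey.

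Of the gene lists drawn up for these cells, several had no member in the group. The lists for pluripotency (39 genes at the signal floor), the cell cycle (72), chromatin regulators (83), heat shock proteins (43) and the TGF-β and BMP pathway (35) contributed 0, and the interferon list contributed 2 of 18, the epithelial junction list 3 of 38 and the FGF list 2 of 34. Members were 0.583% of all genes at the signal floor, so 0 is an ordinary outcome for lists of these sizes. No list is singled out from these counts.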

How the data were processed

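RNA from 12 CGR8 cultures at 4 stages was hybridised to Affymetrix Mouse 430 2.0 arrays. The authors computed the deposited signal intensity values with MAS5 and scaled each array, which has a trimmed mean of 500 here. Of 45101 probe sets, 64 controls were left out. The platform annotation names 1 gene for 34945 probe sets, several for 932 and none for 9160. All values below are log2(intensity + 16). The filter kept 26083 probe sets that lay above the array median on 3 or more arrays. All 12 arrays were fitted in limma 3.58.1 (R 4.3.3) with stage means and an intensity trend, and p-values were adjusted by Benjamini-Hochberg over all tested probe sets. Genes were called at an adjusted p under 0.05 together with over 1.5-fold. The fit was tested on simulated data. The number of arrays limits precision: array medians lay between 101 and 144.1, and replicates correlated at 0.967 to 0.974.

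Promoters came from a table of RefSeq sequences (GRCm38.p6) that held 43 of the 55 members. Members, roles and gene lists were chosen with earlier results of these data known. The named genes are all members, with list genes and the nearest genes at each threshold as context. Alternatives were other pseudocounts, scalings, probe set rules, thresholds, filters, leaving out each array and a fit with the replicate number as a block. The study's detection flags were not used here.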

Additional observations from a re-analysis of the deposited data

How the results depend on the processing

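The size of the group depends on the rule. It held 97 genes with arrays centred on their medians (50 shared with the 55), 36 with values averaged over a gene's probe sets, 13 with thresholds of 1, 88 with thresholds of 0.5, 109 at a signal floor of 100 and 32 at a floor of 400. Added constants of 1 and 64 gave 63 and 40, quantile normalization 76, and log2 of the stage means 51. Leaving out 1 array gave 51 to 75 genes, and 27 of the 55 were kept under every scaling and constant and whichever array was left out. Under both other scalings all 55 remained lower in CP than in ES-LIF(+) and CM, a result that the rule's margins largely fix. Median centring deepened each fall by 0.28 and cut each rise by only 0.03, so it could not reverse any member. No robustness is read from this result. The count of members with separate CP arrays ran from 39 to 52, and from 48 to 52 when 1 array was left out.

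For LIF withdrawal, 849 to 1323 genes and 7 to 10 members were called over the alternatives, and 849 to 999 genes and 7 to 10 members when 1 array was left out, with 10 members without ES-LIF(-) replicate 3. Parvb, Ppm1j, Pdgfc, Gap43, Fgf13 and Lef1 were called in every one of 22 settings and Unc45b in 21. Arrays with the same replicate number deviated together weakly at most (r from -0.047 to 0.0954, against -0.0902 to 0.0529 for other numbers). Between ES-LIF(+) and ES-LIF(-) the same numbers gave r from 0.026 to 0.0954, all positive. Whether those arrays came from paired cultures was not tested. The fit with a replicate block called 1009 genes and 7 members. The list counts under other scalings were added after seeing the data. Signals under the array median, as those of Slc47a1, Ltb, Fcgbp, Rtn1 and Gbp3 in CP, give the least certain folds. The causes were not tested.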
